A study of Homo sapiens with 8 samples.

Results

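The genes described here were 10 regulators of mitosis, namely the kinases AURKA, AURKB, PLK1, BUB1, TTK, NEK2 and CDK1, the checkpoint proteins BUB1B and MAD2L1, and CDC20. They were taken by gene symbol from a table of 27946 genes, with the transcript of highest mean level kept for each gene, and all 10 were among the 13790 genes with enough signal to be tested. RNA-seq had been performed on EA.hy926, a human line made by fusing umbilical vein endothelial cells with a lung carcinoma line. The control group held 2 libraries of cells labelled Control. The ΔE2 group held 3 libraries of cells that lacked E2, an enhancer of the super-enhancer SE12313, and the ΔSE12313-b group held 3 libraries of cells that lacked SE12313-b, a neighbouring constituent of the same super-enhancer. The deletions were made with CRISPR/Cas9, and each ΔE2 or ΔSE12313-b library came from a line grown from a single cell, whereas the control cells were not described as clonal. The study compared each deletion with control and used SE12313-b, inactive in its reporter assays, as a comparator for E2. Both comparisons with control share the same 2 control libraries. What parts a clone from an uncloned culture therefore cannot be told apart from what parts a deletion from control, and p-values measure the spread between these libraries alone.

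Mitosis is driven by CDK1, a cyclin-dependent kinase that is switched on by cyclin B. PLK1 and the Aurora kinases build the spindle and correct the attachment of chromosomes, and NEK2 helps the centrosomes to part. Until every kinetochore is attached, the spindle checkpoint kinases TTK and BUB1 load MAD2L1 and BUB1B onto CDC20, the activator of the anaphase-promoting complex (APC/C), and so hold it back. When the checkpoint is satisfied, CDC20 is released and the APC/C marks securin and cyclin B for destruction. Most of these genes are transcribed mainly in late S, G2 and M phases, and their RNA is low in resting cells. Many of their promoters hold a CHR element, a site known to recruit the MuvB complexes that repress or activate cell cycle genes, and CCAAT boxes, the site of the factor NF-Y.

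Promoter windows of RefSeq (GRCh38.p14, 250 bases before the transcription start to 50 bases after it) were found for 8 of the 10 genes, AURKA and TTK being the others. CHR elements and CCAAT boxes were searched on both strands by exact letters, the CHR element as TTTGAA or in its variant form TTCGAA, and the CCAAT box by its own letters. The windows below are those of CDC20, the gene with the largest rise in both deletions, of CDK1, which was higher in ΔSE12313-b than in ΔE2 clones, and PLK1, whose difference in the same direction did not pass the test, of MAD2L1, which had the smallest rise in ΔSE12313-b and was higher in ΔE2 clones, and of NEK2, which rose in both without a CHR element in its window. Capitals mark both motifs. A CHR element on the other strand reads TTCAAA in these lines, and a CCAAT box on the other strand reads ATTGG.
CDC20 (chr1:43358731-43359030, + strand): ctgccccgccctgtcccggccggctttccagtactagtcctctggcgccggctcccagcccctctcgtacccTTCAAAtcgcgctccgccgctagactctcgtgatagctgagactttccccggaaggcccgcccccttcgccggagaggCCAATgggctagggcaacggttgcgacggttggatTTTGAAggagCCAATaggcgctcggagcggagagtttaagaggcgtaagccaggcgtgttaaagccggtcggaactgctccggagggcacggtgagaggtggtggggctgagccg
PLK1 (chr16:23678639-23678938, + strand): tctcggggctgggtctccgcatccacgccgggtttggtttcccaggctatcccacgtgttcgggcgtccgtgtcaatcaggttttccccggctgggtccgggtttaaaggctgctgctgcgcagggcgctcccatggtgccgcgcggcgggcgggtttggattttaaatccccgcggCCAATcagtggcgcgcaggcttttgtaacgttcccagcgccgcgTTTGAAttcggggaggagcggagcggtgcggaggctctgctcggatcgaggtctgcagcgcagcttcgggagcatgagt
CDK1 (chr10:60778228-60778527, + strand): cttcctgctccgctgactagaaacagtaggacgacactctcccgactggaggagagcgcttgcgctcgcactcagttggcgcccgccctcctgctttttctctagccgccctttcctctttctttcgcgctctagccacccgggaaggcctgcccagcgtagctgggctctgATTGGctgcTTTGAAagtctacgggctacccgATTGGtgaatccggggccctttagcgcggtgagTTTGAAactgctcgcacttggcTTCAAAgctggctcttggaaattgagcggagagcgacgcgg
MAD2L1 (chr4:120066799-120067098, - strand): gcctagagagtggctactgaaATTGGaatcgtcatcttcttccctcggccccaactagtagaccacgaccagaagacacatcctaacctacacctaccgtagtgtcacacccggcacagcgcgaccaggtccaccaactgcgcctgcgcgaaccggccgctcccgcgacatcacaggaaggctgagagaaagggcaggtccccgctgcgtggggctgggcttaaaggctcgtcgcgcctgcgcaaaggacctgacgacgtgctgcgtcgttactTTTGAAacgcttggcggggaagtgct
NEK2 (chr1:211675572-211675871, - strand): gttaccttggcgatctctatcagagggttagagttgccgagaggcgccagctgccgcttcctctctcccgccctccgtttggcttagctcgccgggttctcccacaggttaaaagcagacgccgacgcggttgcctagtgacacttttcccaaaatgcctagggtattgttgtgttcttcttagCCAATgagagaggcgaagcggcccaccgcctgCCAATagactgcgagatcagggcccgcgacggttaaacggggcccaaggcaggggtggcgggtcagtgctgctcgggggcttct

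A CHR element was present in 6 of the 8 genes with a window (CDC20, BUB1, BUB1B, CDK1, MAD2L1 and PLK1), a CCAAT box in 7 (all but BUB1B), and both in 5. Counted by window, 7 of their 10 windows held a CHR element, 9 a CCAAT box and 6 both. Among all 35116 windows of the RefSeq table, 16.4% held a CHR element, 34.6% a CCAAT box and 6.38% both, and among the 14113 windows of genes tested the shares were 11.9%, 35.0% and 4.87%. The CHR element of PLK1 began 29 bases before the start and that of BUB1B 23 bases before it. In CDC20 a TTTGAA began 65 bases and a TTCAAA 178 bases before the start, and the nearer of them lay between CCAAT boxes at 100 and 55 bases. The downstream CDK1 window held CHR elements 69 and 13 bases before its start, with CCAAT boxes on the other strand at 78 and 46 bases. It also held a TTCAAA from base 10 of the transcript. The only CHR matches of BUB1 (TTCGAA) and MAD2L1 (TTTGAA) lay after the start, from bases 2 and 25 of the transcript. The CCAAT box of MAD2L1 was 229 bases before the start. NEK2 had CCAAT boxes at 66 and 34 bases and AURKB at 153 or 129 bases, depending on which of its starts is counted. The 2 motifs can share a base, which occurred in 45 of all windows and in 0 of those of the 10 genes. These matches describe letters only, and binding was not measured here.

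Levels were compared as FPKM (fragments per kilobase of transcript scaled to the reads of the library), which are per length and so can be set side by side between genes. All 10 genes were low in both control libraries, at 0.553 to 6.10 FPKM, and at 11.8 to 111 FPKM in the 6 clones. Their summed level was 25.4 and 24.7 FPKM in the control libraries. In clones it reached 432, 365 and 474 FPKM without E2, and 437, 402 and 357 FPKM without SE12313-b. A gene was called changed at an adjusted p under 0.05 (limma on log2(FPKM + 0.1), Benjamini-Hochberg over the 13790 genes) together with a change of at least 2-fold. All 10 genes were called higher in ΔE2, where 11.2% of the genes tested were called higher and 8.36% lower. All 10 were also called higher in ΔSE12313-b, where 14.7% of the genes tested were called higher and 7.83% lower. Over the 10 genes the log2 fold changes had a median of 4.00 for ΔE2 and 4.21 for ΔSE12313-b, beside medians of 0.14 and 0.27 over all genes tested, and each of the 10 lay between the 97.1 and 99.8 percentiles of all genes.

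Every clone stood above both controls for 10 of 10 genes in each deletion, a pattern that 44.8% of all genes tested showed in ΔE2 and 51.6% in ΔSE12313-b. Other measures moved with the groups as well. The share of a library's reads on the rows kept, 1 transcript per gene, was 64.2 to 64.7% in control libraries. It was 70.0 to 73.3% in ΔE2 and 75.2 to 78.4% in ΔSE12313-b libraries. The depth, recovered from the FPKM, was 12067558 to 19101152 reads per library. Each library was also centred, by taking off the median over genes of its log2 deviations from the gene means. The 10 genes were then still all called higher in both deletions. Higher genes made up 44.4% instead of 57.2% of the ΔE2 calls and 43.3% instead of 65.3% of the ΔSE12313-b calls. Of 10 endothelial markers, 7, 6 and 7 had a mean of at least 1 FPKM in control, ΔE2 and ΔSE12313-b. Their summed levels were 205 to 207, 192 to 300 and 208 to 255 FPKM, with CDH5 the highest and CLDN5 at 0 in every group. The markers did not move as one. CDH5 had means of 102.6, 99.2 and 77.3 FPKM in control, ΔE2 and ΔSE12313-b, and TIE1 of 56.0, 43.4 and 50.4 FPKM. PECAM1 had means of 5.98, 13.9 and 26.04 FPKM in control, ΔE2 and ΔSE12313-b, NOS3 of 24.3, 45.5 and 47.4 FPKM, ERG of 7.68, 18.7 and 16.6 FPKM, and VWF of 1.92, 0.537 and 0.515 FPKM. The summed level of 5 epithelial markers was 232 to 239 FPKM in control, 613 to 752 FPKM in ΔE2 and 541 to 669 FPKM in ΔSE12313-b, nearly all of it KRT8 and KRT18, while CDH1 was at 0. The part of these shifts in the results was not tested. In RNA from whole cultures, more cells that express a gene and more RNA per cell cannot be told apart. In its own assays of these lines, the paper reported slower proliferation of the clones of both deletions. It also reported more of their cells in G0/G1 and fewer in S phase. Its text named a small decrease in G2/M for ΔE2 clones. In its supplement the mean G2/M share was below control in every clone of both deletions, with standard errors that overlapped that of control. How those measurements relate to the RNA levels was not tested.

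Among the kinases of mitotic entry, CDK1 and PLK1 rose most in ΔSE12313-b, and AURKA, the kinase of centrosomes and spindle poles, had the highest level in control cells and the smallest rise of the kinases. CDK1 (chr10:62538212-62554610, + strand, hg19) was at 2.73 and 2.96 FPKM in control libraries, at 45.8, 43.4 and 54.6 FPKM in ΔE2 clones and at 65.2, 62.7 and 59.8 FPKM in ΔSE12313-b clones. All 3 ΔSE12313-b clones stood above all ΔE2 clones, and no group overlapped another. Its log2 fold change was 4.02 ± 0.11 (SE) in ΔE2, or 16.2-fold, with an adjusted p of 2.69e-07 by limma. In ΔSE12313-b it was 4.41 ± 0.11, or 21.3-fold, with an adjusted p of 1.77e-07 by limma.

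PLK1 (chr16:23690093-23701688, + strand), whose product activates CDK1 and matures the centrosomes, was at 3.03 and 2.89 FPKM in control libraries, at 47.6, 38.6 and 51.2 FPKM in ΔE2 clones and at 65.6, 55.5 and 51.2 FPKM in ΔSE12313-b clones. The lowest ΔSE12313-b clone and the highest ΔE2 clone were almost level. The log2 fold changes were 3.90 ± 0.14 (SE) and 4.23 ± 0.14, or 14.9-fold and 18.7-fold. AURKA (chr20:54944445-54967393, - strand) was at 5.62 and 6.10 FPKM in control libraries, at 50.8, 45.2 and 56.4 FPKM in ΔE2 clones and at 50.3, 51.04 and 43.9 FPKM in ΔSE12313-b clones. Its clones of both deletions overlapped, at rises of 8.51-fold and 8.13-fold (log2 3.09 and 3.02, each ± 0.11 SE). NEK2 (chr1:211836114-211848972, - strand) was at 0.997 and 0.894 FPKM in control libraries, from 27 and 23 reads, at 16.0, 15.6 and 17.7 FPKM in ΔE2 clones and at 21.0, 19.4 and 17.0 FPKM in ΔSE12313-b clones. It was the lowest of the 10 genes in ΔE2, and the ranges of both deletions overlapped. Its rise was 15.8-fold in ΔE2 (log2 3.98 ± 0.11 SE) and 18.4-fold in ΔSE12313-b (4.20 ± 0.11). The adjusted p of these 3 genes lay between 2.64e-07 and 7.34e-07 by limma.

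AURKB is the kinase of the chromosomal passenger complex, which senses tension at kinetochores, and it rose more than AURKA in both deletions. It (chr17:8108049-8113543, - strand) was at 1.37 and 1.44 FPKM in control libraries, at 47.2, 36.9 and 49.8 FPKM in ΔE2 clones and at 45.0, 38.8 and 40.1 FPKM in ΔSE12313-b clones. The controls rested on 18 reads each, and the clones of both deletions overlapped. The log2 fold change was 4.88 ± 0.13 (SE) for ΔE2 and 4.78 ± 0.13 for ΔSE12313-b, or 29.4-fold and 27.4-fold, with adjusted p of 2.72e-07 and 2.89e-07 by limma. The row with the highest mean was a non-coding RefSeq transcript of AURKB. Over all 11 AURKB rows, which share reads, the log2 fold change spanned 4.88 to 5.15 for ΔE2 and 4.78 to 5.07 for ΔSE12313-b. For the other genes with several rows the spread was at most that of NEK2, whose 3 rows spanned 3.98 to 4.19 for ΔE2 and 4.20 to 4.37 for ΔSE12313-b.

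Of the checkpoint kinases, TTK, which starts checkpoint signalling at unattached kinetochores, had the lowest level in control cells. TTK (chr6:80714322-80752244, + strand) was at 0.973 and 0.553 FPKM in control libraries, from 37 and 20 reads, at 20.6, 18.9 and 24.1 FPKM in ΔE2 clones and at 15.8, 12.96 and 11.8 FPKM in ΔSE12313-b clones. Its control libraries differed most among the 10 genes (SD 38.9% of the mean, n = 2), and every ΔE2 clone was above every ΔSE12313-b clone. The log2 fold change was 4.66 ± 0.22 (SE) in ΔE2, or 25.3-fold, and 4.01 ± 0.22 in ΔSE12313-b, or 16.1-fold, with adjusted p of 2.38e-06 and 4.43e-06 by limma. BUB1 (chr2:111395275-111435684, - strand), the kinase that marks centromeres and recruits other checkpoint proteins, was at 1.42 and 1.54 FPKM in control libraries, at 32.4, 30.5 and 38.4 FPKM in ΔE2 clones and at 33.4, 32.7 and 27.9 FPKM in ΔSE12313-b clones. The clones of both deletions overlapped, at rises of 21.3-fold and 19.8-fold (log2 4.42 and 4.31, each ± 0.12 SE). BUB1B (chr15:40453210-40513337, + strand), the BubR1 subunit of the complex that blocks the APC/C, was at 1.53 and 1.29 FPKM in control libraries, at 22.4, 18.2 and 23.2 FPKM in ΔE2 clones and at 21.9, 19.5 and 17.3 FPKM in ΔSE12313-b clones. Its rise was 14.1-fold in ΔE2 and 13.01-fold in ΔSE12313-b (log2 3.82 and 3.70, each ± 0.14 SE), again with overlapping clones. The adjusted p of BUB1 and BUB1B lay between 2.72e-07 and 8.98e-07 by limma. The 3' end of BUB1B overlaps the read-through transcript BUB1B-PAK6 on the same strand, which was at a mean of 0.0745, 0.980 and 0.874 FPKM in control, ΔE2 and ΔSE12313-b, and their reads may be split.

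CDC20 and MAD2L1, the activator of the APC/C and the protein that binds and blocks it, had the largest and, in ΔSE12313-b, the smallest rise of the 10 genes. CDC20 (chr1:43824626-43828873, + strand) was at 2.70 and 2.35 FPKM in control libraries, at 105, 77.2 and 111 FPKM in ΔE2 clones and at 87.6, 81.4 and 67.0 FPKM in ΔSE12313-b clones. It was the highest of the 10 genes in every clone, and the clones of both deletions overlapped. The log2 fold change was 5.21 ± 0.17 (SE) for ΔE2 and 4.90 ± 0.17 for ΔSE12313-b, or 36.9-fold and 29.9-fold, with adjusted p of 4.73e-07 and 6.18e-07 by limma. MAD2L1 (chr4:120980579-120988013, - strand) was at 5.07 and 4.70 FPKM in control libraries, at 44.2, 40.0 and 48.1 FPKM in ΔE2 clones and at 30.7, 28.1 and 21.1 FPKM in ΔSE12313-b clones. The lowest ΔE2 clone was above the highest ΔSE12313-b clone. The log2 fold change was 3.15 ± 0.16 (SE) for ΔE2 and 2.41 ± 0.16 for ΔSE12313-b, or 8.85-fold and 5.30-fold, with adjusted p of 3.21e-06 and 1.14e-05 by limma.

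**Figure D1:**
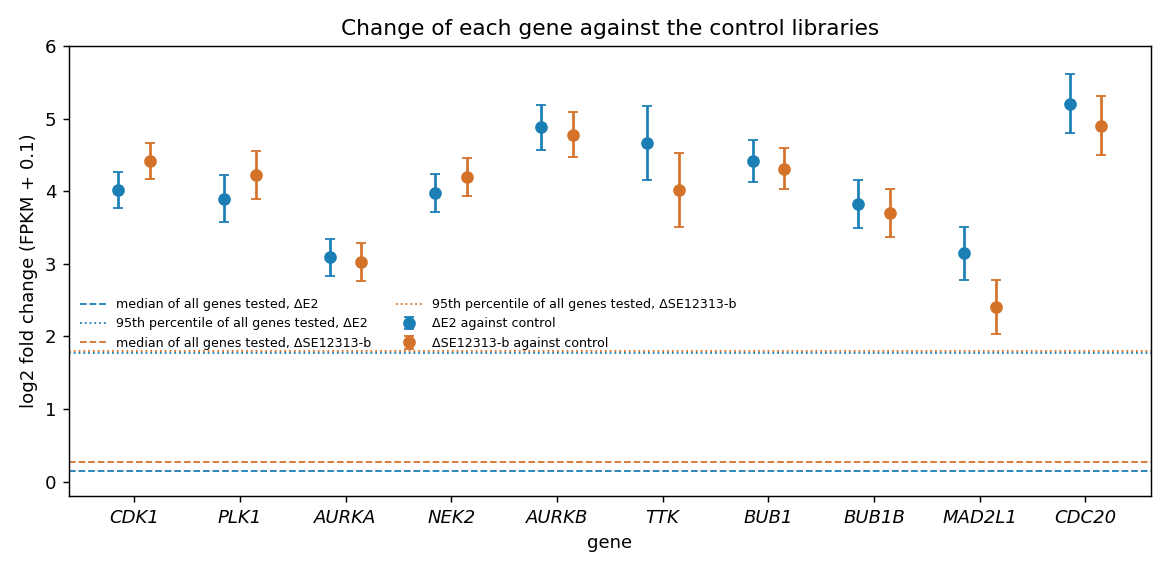
Log2 fold change of each gene against control on log2(FPKM + 0.1), with 95% intervals, for ΔE2 (blue) and ΔSE12313-b (orange); dashed lines give the median and dotted lines the 95th percentile of all 13790 genes tested. All 20 points lie above the dotted lines, from 2.41 for MAD2L1 in ΔSE12313-b to 5.21 for CDC20 in ΔE2.

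Because the rises were unequal, the order of the levels differed between control cells and clones. This order is that of the rows kept, the highest of each gene, and its gaps and ties depend on that choice. Other rows had control means down to 5.04 FPKM for AURKA, within the MAD2L1 range, 0.984 FPKM for AURKB and 0.830 FPKM for CDK1. In control cells AURKA was highest, at 5.86 ± 0.34 FPKM (SD, n = 2), and MAD2L1 next, at 4.88 ± 0.26, with no overlap between them or with the others. PLK1 and CDK1 followed at 2.96 ± 0.10 and 2.85 ± 0.16 FPKM and did not differ beyond their ranges. BUB1, BUB1B and AURKB, at 1.41 to 1.48 FPKM, were not separated, nor were NEK2 and TTK at the bottom. In ΔE2 clones CDC20 led at 97.8 ± 17.9 FPKM (SD, n = 3), clear of AURKA, CDK1, PLK1, AURKB and MAD2L1, whose means of 44.1 to 50.8 FPKM overlapped from each to the next. BUB1 followed at 33.8 ± 4.10 FPKM, overlapping AURKB but not MAD2L1 or BUB1B, BUB1B and TTK overlapped, and NEK2 was last at 16.4 ± 1.11. In ΔSE12313-b clones CDC20 led at 78.7 ± 10.5 FPKM (SD, n = 3), CDK1 and PLK1 came next without a gap between them, and TTK was last at 13.5 ± 2.06, below every NEK2 value.

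To show how far each gene stood from the others, its log2 level was also taken minus the mean log2 level of the 10 genes in the same library, which leaves the order within a library as it is. AURKA stood 1.46 above that mean in control libraries, 0.44 above it in ΔE2 and 0.49 above it in ΔSE12313-b. MAD2L1 went from 1.21 to 0.24 and -0.38, and CDC20 from 0.28 to 1.37 and 1.18. AURKB moved from -0.52 to 0.25 and 0.26. The ratio of CDC20 to MAD2L1 FPKM, chosen for display after the values were seen, was 0.533 and 0.499 in the control libraries. In clones it was 2.39, 1.93 and 2.30 without E2, and 2.85, 2.90 and 3.18 without SE12313-b. MAD2L1 RNA was thus above CDC20 RNA in both control libraries and below it in all 6 clones.

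The 10 genes had nearly the same order of clones within each deletion. In ΔE2, replicate 3 had the highest and replicate 2 the lowest value for 10 of 10 genes, an order that 23.9% of all genes tested had. In ΔSE12313-b, replicate 1 was the highest for 9 and replicate 3 the lowest for 9, the exceptions being AURKA, highest in replicate 2, and AURKB, lowest in replicate 2. Over all genes tested, replicate 1 was the highest for 33.2% and replicate 3 the lowest for 39.6%. Within a group of clones the SD of a gene was between 4.38% (CDK1 in ΔSE12313-b) and 18.8% (MAD2L1 in ΔSE12313-b) of its mean, well under the rises against control.

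The deletions were then compared directly. Of the 10 genes, 0 differed by at least 2-fold at an adjusted p under 0.05 between ΔE2 and ΔSE12313-b by limma or by voom on the recovered reads, a call that limma gave to 1.60% of all genes tested as higher in ΔE2 and to 2.63% as lower. At an unadjusted p under 0.05, 2 of the 10 were higher and 2 lower, beside 10.5% and 28.3% of all genes tested. At an adjusted p under 0.05 without a limit on size, MAD2L1 and TTK were higher in ΔE2 and CDK1 was lower. Over all genes tested 6.69% were higher and 19.3% lower by that rule, around a median log2 difference of -0.11. MAD2L1 was higher in ΔE2 by a log2 difference of 0.74, or 1.67-fold (95% interval 0.41 to 1.07, adjusted p = 0.00811 by limma). TTK was higher by 0.65, or 1.57-fold (0.19 to 1.11, adjusted p = 0.0453 by limma). CDK1 had a log2 difference of -0.39 (-0.61 to -0.17, adjusted p = 0.0211 by limma), and of -0.28 relative to the median of all genes.

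The other 7 genes did not pass, with intervals that bound their difference. PLK1 had a log2 difference of -0.33 (95% interval -0.62 to -0.04, adjusted p = 0.0951 by limma), NEK2 one of -0.22 (-0.45 to 0.02) and CDC20 one of 0.30 (-0.06 to 0.67). AURKA, AURKB, BUB1 and BUB1B had differences of 0.07 to 0.12, and their intervals together ran from -0.18 to 0.42. Every ΔE2 clone was above every ΔSE12313-b clone for 2 of the 10 genes (MAD2L1 and TTK), as it was for 11.0% of all genes tested. The reverse held for 2 of the 10 (CDK1 and PLK1) and for 29.8% of all genes tested. The p of TTK and CDK1 depended on single clones. TTK missed the threshold without any 1 of the 6 clones (log2 difference 0.55 to 0.77, adjusted p 0.0527 to 0.139 by limma). CDK1 missed it without ΔE2 replicate 1 (-0.36), ΔSE12313-b replicate 1 (-0.36) or ΔSE12313-b replicate 2 (-0.39). It also missed it when each library was centred as above (-0.26, adjusted p = 0.0759 by limma) or after quantile normalization (-0.24, adjusted p = 0.122 by limma).

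The position of the genes moved with this difference. The genes tested within 10 Mb of MAD2L1 on 4q, 45 in number, had a median log2 difference of 0.57 between ΔE2 and ΔSE12313-b, and the 59 around TTK on 6q one of 0.46. The 49 genes around CDK1 on 10q had a median of -0.45 and the 208 around PLK1 on 16p one of -0.51. Around the other 6 genes the medians lay between -0.15 and -0.04, near that of all genes. Across the 10 genes, the member's difference and that of its neighbours had a Pearson r of 0.94 and a Spearman rho of 0.88, as a description over 10 genes measured in the same libraries. Relative to its neighbours, MAD2L1 was 0.17 higher in ΔE2, TTK 0.19, PLK1 0.18 and CDK1 0.06, while CDC20 was 0.40 higher. The part of the neighbourhood in these differences was not tested.

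Partners and direct regulators of the 10 genes were described from a list of 36 genes, all of them tested. By voom 31 (ΔE2) and 30 (ΔSE12313-b) of the 36 rose and 0 fell. At an unadjusted p under 0.05, 0 were lower, beside 22.0% and 18.4% of all genes. The list had medians of 2.52 (ΔE2) and 2.46 (ΔSE12313-b) on the log2 scale, beside 0.14 and 0.27 over all genes. By limma 33 of the 36 rose and 0 fell in each deletion, where 11.2% (ΔE2) and 14.7% (ΔSE12313-b) of all genes tested were called higher. The genes not called were MAD1L1, MAD2L1BP and TPR in ΔE2 and MAD2L1BP, TPR and ZW10 in ΔSE12313-b. For CDK1, its activating cyclin CCNB1 rose from 2.12 and 2.96 FPKM in control libraries to 42.2 to 51.8 FPKM in ΔE2 and 38.6 to 48.2 FPKM in ΔSE12313-b clones, with log2 fold changes of 4.15 and 4.10. Both inhibitory kinases of CDK1 rose as well. PKMYT1 rose by log2 4.55 and 5.34, from 7 and 8 reads in the control libraries, and WEE1, already at 6.71 and 6.77 FPKM in control, by 1.13 and 1.08. TPX2, the spindle protein that activates AURKA, rose from 6.36 and 6.58 FPKM to 92.4 to 117 FPKM over the clones (log2 4.01 and 3.96). BORA, the cofactor through which AURKA activates PLK1, rose by 2.41 and 2.45 and stayed at 4.20 to 5.04 FPKM.

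The other subunits of the chromosomal passenger complex rose with AURKB. BIRC5 (survivin) had the largest mean rise on the list, from 0.930 and 1.11 FPKM to 33.5 to 46.0 FPKM over the clones, with log2 fold changes of 5.10 for ΔE2 and 5.21 for ΔSE12313-b. CDCA8 (borealin) rose by 4.85 and 4.57. INCENP, the scaffold of the complex, rose by 2.63 and 2.33. Its control level, at 3.31 and 3.22 FPKM, was above those of BIRC5, CDCA8 and AURKB. Among checkpoint partners, BUB3, which brings BUB1 and BUB1B to kinetochores, was at 35.1 and 37.3 FPKM in control libraries and at 67.6 to 110.0 FPKM in clones, a log2 rise of 1.16 and 1.48. BUB3 RNA was therefore 23.0 and 28.8 times that of BUB1B in control libraries and between 3.71 and 5.63 times that of BUB1B in the clones. MAD1L1, the kinetochore anchor of MAD2L1, was called in ΔSE12313-b (1.03) and had a log2 fold change of 0.79 in ΔE2, under the 2-fold limit, and the difference between them did not pass (-0.25, adjusted p = 0.25 by limma). Between the deletions, 0 of the 36 genes were called at 2-fold by limma or by voom, and 4 were higher and 3 lower in ΔE2 at an unadjusted p under 0.05, where 10.5% of all genes tested were higher and 28.3% lower.

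Downstream of CDC20, a ubiquitin-conjugating enzyme and a substrate of the APC/C rose, and 14 of 15 genes on the list of its subunits were not called. UBE2C, which works with the APC/C, rose from 4.58 and 5.91 FPKM to 70.9 to 99.3 FPKM over the clones (log2 4.00 and 4.07). PTTG1 (securin), the substrate whose removal frees separase, rose from 9.12 and 10.7 FPKM to 41.8 to 64.1 FPKM (2.41 in both deletions). The list of 15 genes with the APC/C subunits and FZR1, the other activator of the APC/C, held 1 gene called higher in each deletion and 0 lower by limma and by voom. Over all genes tested, limma called 11.2% higher and 8.36% lower in ΔE2, and 14.7% higher and 7.83% lower in ΔSE12313-b. The counts called on this list are too small to set it apart from other genes. At an unadjusted p under 0.05, 10 of the list were higher and 1 lower in ΔE2, beside 37.7% and 22.0% of all genes tested. In ΔSE12313-b 12 were higher and 1 lower, beside 45.5% and 18.4%. The log2 fold changes of the list had medians of 0.43 (ΔE2) and 0.64 (ΔSE12313-b). The called gene was ANAPC15, a subunit that helps to release CDC20 from the checkpoint complex, with 2.10 and 1.86. FZR1 had log2 fold changes of 0.79 and 0.73, under the 2-fold limit, so that CDC20 went from 2.52 to 97.8 FPKM in ΔE2 while FZR1 went from 6.67 and 7.16 FPKM to 11.2 to 12.8 FPKM.

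Relatives of the 10 genes that act outside mitosis or in other parts of it were taken as a further list, of which 22 of 24 genes were tested. In ΔE2, 7 rose and 2 fell, and in ΔSE12313-b 6 rose and 1 fell, with a median log2 fold change of 0.32 in both. Over all genes tested 11.2% rose and 8.36% fell in ΔE2, and 14.7% rose and 7.83% fell in ΔSE12313-b, so that the falls were near or below the share of all genes. PLK4, the kinase of centriole duplication, rose from 0.450 and 0.790 FPKM to 11.0 to 15.02 FPKM in ΔE2 and 6.49 to 8.23 FPKM in ΔSE12313-b clones (log2 4.21 and 3.41). CDK2, the kinase of S phase, rose from 11.4 and 10.8 FPKM to 31.7 to 39.2 FPKM (1.61 and 1.72), and NEK10 rose by 2.04 and 1.60. AURKC, the Aurora kinase best known from germ cells, was called lower in both deletions (-2.36 and -1.86). It rested on 13 and 10 reads in the control libraries and on 0 to 5 in the clones, and its call in ΔSE12313-b was lost when either control library was left out, as well as without ΔE2 replicate 3 or ΔSE12313-b replicate 1. NEK9, which acts upstream of NEK6 and NEK7, fell by 1.41 in ΔE2, from 33.0 and 32.5 FPKM to 10.0 to 15.8 FPKM. In ΔSE12313-b it had a log2 fold change of -0.86, under the 2-fold limit, and the difference between the deletions did not pass (-0.54, adjusted p = 0.0639 by limma).

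Of 21 genes for phosphatases and their regulators, which oppose the mitotic kinases, 19 were tested. In ΔE2, 3 rose and 1 fell, and in ΔSE12313-b 1 rose and 1 fell, beside 11.2% higher and 8.36% lower, and 14.7% higher and 7.83% lower, of all genes tested. These counts are too small to set the phosphatases apart from other genes. Their median log2 fold changes were 0.32 and 0.59. ENSA, an inhibitor of PP2A during mitosis, rose by 1.14 and 1.18. The PP2A scaffold PPP2R1B (1.27 in ΔE2, 0.80 in ΔSE12313-b) and the PP1 catalytic subunit PPP1CA (1.05 and 0.87) were called in ΔE2 alone at 2-fold, and PPP2R5B, a regulatory subunit of PP2A, fell by 1.23 and 1.18. For PPP2R1B the difference between the deletions was 0.47 (95% interval 0.27 to 0.66, adjusted p = 0.00694 by limma), and for PPP1CA it was 0.18 (adjusted p = 0.0891).

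Outside the 10 genes, the 5 genes whose log2 level followed the mean of the 10 most closely over the 8 libraries were MELK, a kinase of proliferating cells, NCAPG2, a subunit of condensin II, FANCI, of the Fanconi pathway of DNA repair, PRIM1, the catalytic subunit of DNA primase, and TIMELESS, which protects replication forks. Pearson r was 0.9997 for each, rounded, and is given as a description, since the libraries fell into controls and clones. Among the 10 genes, r with the mean of the other 9 ran from 0.966 for MAD2L1 to 0.9995 for BUB1B. MELK went from a mean of 2.60 FPKM in control to 20.7 in ΔE2 and 19.8 in ΔSE12313-b, and TIMELESS from 8.37 to 33.5 and 32.6. Their log2 fold changes, 2.94 and 2.87 for MELK and 1.99 and 1.95 for TIMELESS, were thus smaller than the median of the 10 genes.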

How the data were processed

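RNA-seq had been performed on 8 EA.hy926 libraries (2 control, 3 ΔE2 and 3 ΔSE12313-b). The libraries were directional, from total RNA without rRNA. The authors trimmed reads with Trim Galore 0.4.4 and aligned them with STAR 2.5.4b to GRCh37/hg19, per the submitters' processing notes. They deposited 1 table of FPKM with 65572 rows, each a RefSeq transcript. The program behind that table and its handling of strands are not given in the sources used here, so reads of overlapping genes on opposite strands may not be separated. The authors' own calls used featureCounts and edgeR on other counts, which were not used here.

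FPKM were used as deposited. The row with the highest mean FPKM was kept for each gene, and genes with at least 0.5 FPKM in at least 2 libraries were tested with limma 3.58.1 in R 4.3.3 on log2(FPKM + 0.1). A single linear model held the 3 groups, with a mean-variance trend, two-sided tests and Benjamini-Hochberg adjustment over all 13790 genes. Fold changes on this scale understate the change of low genes. FPKM multiplied by length gave whole reads for 99.97% to 99.99% of values (within 0.1 read). These reads gave the depth (12067558 to 19101152 reads per library) and the input of limma's voom as an alternative. The fit was checked on simulated reads in which a small set of genes changed up or down by the same fold in the ΔE2 libraries alone. Broad shifts between the groups, such as those described above, were not simulated. Promoter windows came from RefSeq (GRCh38.p14), whereas gene coordinates are those of the table (hg19).

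The 10 genes, the lists and the genes named were chosen with earlier results of these data known. Named were the 10 genes, 12 related genes whatever their values (CCNB1, TPX2, BORA, INCENP, BIRC5, CDCA8, BUB3, MAD1L1, FZR1, UBE2C, PTTG1 and WEE1), up to 3 called genes with the largest rise and fall in each list, and the 5 genes most alike. The partners not called against control, ZW10 among them, were named as well. The alternatives were other pseudocounts, filters and scalings, a replicate block, each library left out, no trend, only the groups compared, every transcript, voom and a 1.5-fold limit.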

Additional observations from a re-analysis of the deposited data

Results flagged for a closer look

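Of the 10 mitotic genes and the related genes named above, the following differed between ΔE2 and ΔSE12313-b at an adjusted p under 0.05 in limma's test of the difference itself, all by less than 2-fold. MAD2L1 had a log2 difference (ΔE2 minus ΔSE12313-b) of 0.74 (95% interval 0.41 to 1.07) and TTK one of 0.65 (0.19 to 1.11). CDK1 had one of -0.39 (-0.61 to -0.17). The median differences of the neighbours of MAD2L1, TTK and CDK1 had the same signs, as given above. Related genes were not left out of the neighbours counted above, so some of them may be among these neighbours. Neighbours of the related genes themselves were not examined. Of the related genes, PLK4 had a log2 difference of 0.80 (0.35 to 1.26), PPP2R1B of 0.47 (0.27 to 0.66), NEK10 of 0.45 (0.18 to 0.71) and INCENP of 0.30 (0.11 to 0.49). ZW10, a kinetochore protein of the checkpoint, had one of 0.78 (0.60 to 0.96). PKMYT1, an inhibitory kinase of CDK1, had one of -0.80 (-1.25 to -0.34). The adjusted p of these 9 genes lay between 0.000866 and 0.0453. Over the whole lists, named or not, 4 partners were higher and 2 lower in ΔE2 by this test, 1 and 4 of the APC/C list, 3 and 4 of the relatives of the kinases, and 1 and 3 of the phosphatases, beside 6.69% higher and 19.3% lower over all genes tested. The 9 genes are therefore not the largest differences of the lists. Among those not named above, ANAPC10 of the APC/C list had a log2 difference of 0.88 (0.60 to 1.17), and CCNA2 of the partners one of 0.61 (0.31 to 0.91).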

How the results depend on the processing

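All 10 mitotic genes stayed called higher in both deletions under each of the 20 alternatives, with log2 fold changes between 2.89 and 5.37 in ΔE2 and between 2.09 and 5.01 in ΔSE12313-b. At 1.5-fold, 2 of the 10 differed between the deletions, MAD2L1 (0.74) and TTK (0.65). MAD2L1 kept an adjusted p under 0.05 in 20 of 20 alternatives, CDK1 in 14, TTK in 10, CDC20 in 1 (0.47, without ΔE2 replicate 2) and the others in 0. The 1.5-fold alternative reused the main fit, so it could neither lose a call nor change an adjusted p. AURKA, not called in that comparison (0.07), ranged from -0.011 to 0.15 with 1 library left out, and was below 0 without ΔE2 replicate 3 or ΔSE12313-b replicate 3. Same-numbered libraries did not deviate together (correlations from -0.08 to 0.11), and a replicate block left 2530, 2962 and 523 calls over all genes instead of 2697, 3112 and 583, all 10 mitotic genes called in both deletions, CDK1 at an adjusted p of 0.0555 and TTK at 0.0504 between the deletions, and 0 relatives of the kinases lower in ΔSE12313-b.

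The counts of the small lists moved most. Of the relatives of the kinases, 1 was lower in ΔE2 with a pseudocount of 1 or a mean FPKM of at least 1. In ΔSE12313-b, 0 were lower with a pseudocount of 0.01 or 1 or with that filter, 3 after centring or with voom and 4 at 1.5-fold, while 3 were higher after quantile normalization and 10 at 1.5-fold. Leaving out 1 library gave 1 to 2 of them lower in ΔE2 and 0 to 1 lower in ΔSE12313-b. AURKC is the gene called lower in ΔSE12313-b, and it fell out without control replicate 1 or 2, ΔE2 replicate 3 or ΔSE12313-b replicate 1. Of the phosphatases, 1 was higher in ΔE2 after centring, quantile normalization or voom and 7 at 1.5-fold, with 0 lower at a pseudocount of 1. In ΔSE12313-b 0 were higher under those 3 scalings and 10 at 1.5-fold, and 0 were lower at a pseudocount of 1. Of the APC/C list, 7 were higher and 1 lower in ΔE2 at 1.5-fold, 8 were higher in ΔSE12313-b, and leaving out 1 library gave 1 to 2 higher in each deletion. The causes were not tested. At control levels of 0.553 to 1.44 FPKM, the folds of NEK2, AURKB and TTK depend most on the pseudocount, and BUB1 and BUB1B nearly as much as AURKB. NEK2, AURKB and TTK also had the fewest control reads of the 10 genes, at 18 to 37. With 2 control libraries the spread is borrowed across groups.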
